A study of Homo sapiens with 12 samples.

Results

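DDIT4, the sestrins SESN1, SESN2 and SESN3, TSC1 and TSC2, RHEB, and MTOR, RPTOR and DEPTOR are 10 genes that together set or carry out signalling by the kinase complex mTORC1. They were picked by gene symbol, through the Ensembl identifiers in the count tables, and make up 10 of the 60666 genes listed. All 10 passed edgeR's filter on low counts, which left 14274 genes for testing. RNA was taken from Huh7 cells, an established human hepatocellular carcinoma line, grown for 24 h or 48 h with 25 µM Molidustat or with the solvent DMSO. Molidustat blocks the prolyl hydroxylases that mark the α subunits of hypoxia-inducible factors (HIFs) for destruction. The 4 groups were DMSO at 24 h, Molidustat at 24 h, DMSO at 48 h and Molidustat at 48 h, each with 3 libraries (12 in all), and no genetic change is labelled in any of them. All libraries come from 1 cell line, and the sources differ on whether the replicates were separate cultures or repeated RNA extractions, so the p-values below may measure a partly technical spread.

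mTORC1 is a kinase complex built around MTOR that drives protein synthesis and growth and holds back autophagy when nutrients and growth factors are plentiful. RHEB, a small GTPase, switches it on at the lysosome, and the TSC complex switches RHEB off. DDIT4, also called REDD1, is known to be induced by low oxygen and other stresses and to restrain mTORC1 through the TSC complex, while the sestrins restrain it through the amino acid sensing branch.

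The libraries held 1499273 to 9179389 counts on genes. DMSO 48 h replicate 2 stood apart from the rest. It was the smallest library, with 50.4% of its listed reads on no annotated feature, against 17.1 to 25.6% elsewhere. Its TMM factor, edgeR's correction of library size for composition, was 0.629, against 1.01 to 1.08 in the other libraries. This library decided several of the values below, which are therefore also given without it. The label of a hepatoma line was checked against 9 hepatocyte genes. Their summed level lay between 14347 and 31191 CPM in 11 libraries and at 8167 CPM in DMSO 48 h replicate 2, and AFP, the fetal albumin-like protein of hepatoma cells, had group means of 6035 to 8827 CPM. CPM, the unit of level used throughout, is a gene's count relative to the TMM-scaled library size. The leukocyte genes CD3E and CD79A and the endothelial gene VWF had 0 counts in all libraries, and PTPRC and CDH5 had 7 counts and 1 count, while CD68, of the leukocyte list, had 156 counts and PECAM1, of the endothelial list, 103 counts over all libraries. Summed over their lists, the leukocyte genes lay at 1.15 to 6.81 CPM and the endothelial genes at 0 to 6.45 CPM, with the highest value of both in Molidustat 24 h replicate 1. The summed fibroblast genes were low but highest with Molidustat at 48 h, at 7.72 to 12.6 CPM against 0.62 to 6.2 CPM in the other groups.

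The sequence upstream of DDIT4 is shown because DDIT4 was the only gene of the 10 past the thresholds, and that of SESN2 because it was the only other gene that separated the Molidustat from the DMSO libraries at 24 h. Capitals mark matches to ACGTG or GCGTG, the core letters that HIFs are known to recognise, searched on both strands. Both are RefSeq sequences on build GRCh38.p14, from 250 to 11 bases before the annotated transcription start, DDIT4 at chr10:72273674-72273913 and SESN2 at chr1:28259268-28259507, each on the plus strand.
DDIT4: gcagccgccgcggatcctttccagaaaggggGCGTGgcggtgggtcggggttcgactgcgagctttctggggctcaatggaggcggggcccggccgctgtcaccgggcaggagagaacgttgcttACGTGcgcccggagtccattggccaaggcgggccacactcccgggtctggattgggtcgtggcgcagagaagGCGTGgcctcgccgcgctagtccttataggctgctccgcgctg
SESN2: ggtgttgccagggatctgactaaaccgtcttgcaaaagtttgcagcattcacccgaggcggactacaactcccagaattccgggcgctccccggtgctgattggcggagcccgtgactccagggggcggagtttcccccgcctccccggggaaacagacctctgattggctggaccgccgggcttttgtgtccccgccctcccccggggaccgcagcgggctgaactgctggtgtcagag

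The DDIT4 window held ACGTG once, with its first base 125 bases before the start, and GCGTG at 219 and 53 bases before it. The SESN2 window held neither. Over the 250 bases before each RefSeq start, ACGTG occurred in 18.5% and GCGTG in 32.2% of 35116 windows. Of the 9 genes with an entry (12 windows), 3 held ACGTG, namely DDIT4, TSC2 and RHEB, and 4 held GCGTG, namely DDIT4, SESN1, MTOR and RPTOR. TSC2 also held CACGTG, which contains ACGTG on both strands and occurred in 6.34% of windows, and TGATGNAA, core letters recognised by the stress factor ATF4, which occurred in 3.14%. These matches are a description of the letters. Whether any of them is bound in Huh7 cells was not measured here.

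Molidustat raised DDIT4 at each time point, and no other gene of the 10 passed the test. To be called, a gene needed a Benjamini-Hochberg adjusted p below 0.05 in edgeR's quasi-likelihood test, fitted to the 12 libraries together, and had to change by more than 1 on the log2 scale. At 24 h, 1 of the 10 genes was called higher, where 0.231% of all genes tested were, and 0 were called lower, as were 0% of all genes. At 48 h, 1 of the 10 was again called higher, against 0.21% of all genes, and 0 lower, against 0.021%. The 10 genes had a median log2 fold change of 0.20 at 24 h and -0.20 at 48 h, where the medians over all genes tested were 0.02 and 0.01. In these bulk samples, a lower share of cells expressing a gene and less of its RNA per cell cannot be told apart.

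**Figure D1:**
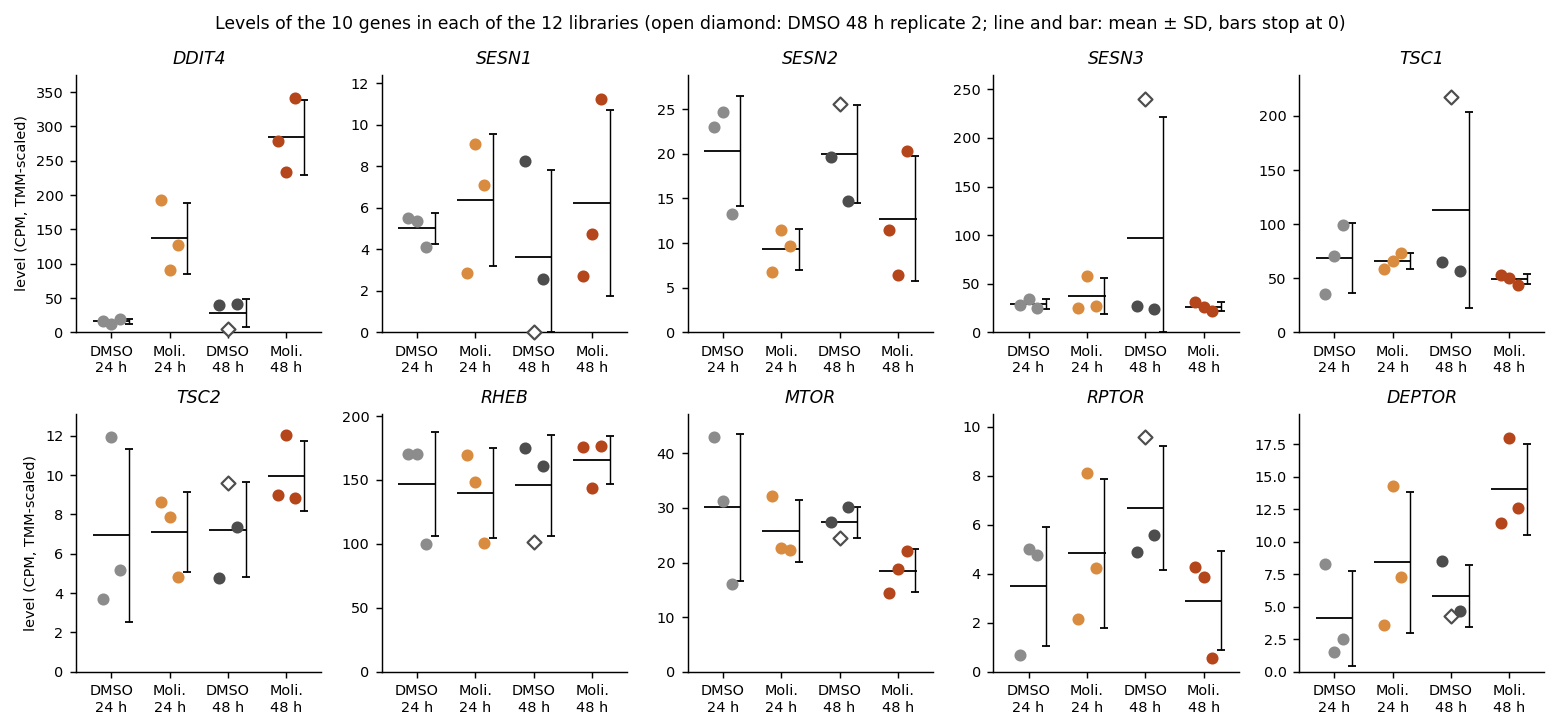
Level of each of the 10 genes in the 12 libraries (y axis, CPM scaled by TMM, a separate linear axis from 0 for each gene) by group (x axis), with the group mean and SD (n = 3). DDIT4 reached 90.9 to 340.9 CPM in the 6 Molidustat libraries and at most 41.7 CPM in the 6 DMSO libraries, while the open diamond, DMSO 48 h replicate 2, is the highest of the 12 points for SESN2, SESN3, TSC1 and RPTOR.

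DDIT4 (ENSG00000168209; chromosome 10, 72273919 to 72276036, GRCh38) had 16.5, 12.3 and 18.8 CPM in the 3 DMSO libraries at 24 h and 193, 90.9 and 127 CPM in the 3 Molidustat libraries. Every Molidustat library lay well above every DMSO library. By 48 h the values were 39.2, 4.26 and 41.7 CPM with DMSO and 278, 233 and 341 CPM with Molidustat, again without overlap. The low DMSO value, 4.26 CPM, is that of replicate 2 and rests on 4 counts, against 289 and 404 counts in the other DMSO libraries of that time. The change was 8.55-fold at 24 h, with a 95% interval of the log2 fold change from 1.94 to 4.25 (adjusted p = 0.0181 by edgeR), and 9.45-fold at 48 h, with an interval from 2.10 to 4.38 (adjusted p = 0.0144 by edgeR). DDIT4 was the 28th gene by p-value at 24 h and the 20th at 48 h.

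The size of the DDIT4 response held up better than its adjusted p-value. Without DMSO 48 h replicate 2, the log2 fold change was 3.10 at 24 h (adjusted p = 1.35e-05 by edgeR) and 2.80 at 48 h (adjusted p = 0.000414 by edgeR), and DDIT4 remained the only gene of the 10 that was called. That fit called 0.728% of all genes higher at the earlier time and 0.315% at the later one, with 0.0328% lower at each. The 24 h call was lost when any of the 3 DMSO 24 h libraries, or Molidustat 24 h replicate 1 or 3, was left out, with adjusted p-values of 0.0576 to 0.196 by edgeR. The 48 h call was lost without any of the 3 Molidustat 48 h libraries (0.0518 to 0.0801) and when the 48 h libraries were fitted alone (log2 fold change 3.25, adjusted p = 0.305 by edgeR). Over the 12 fits that leave out 1 library each, the log2 fold change stayed between 2.77 and 3.32 at 24 h and between 2.80 and 3.55 at 48 h.

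The DDIT4 level was lowest with DMSO at 24 h (15.9 ± 3.28 CPM, SD, n = 3), followed by DMSO at 48 h (28.4 ± 20.9), Molidustat at 24 h (137.0 ± 51.9) and Molidustat at 48 h (284 ± 54.2). The neighbours in this order that differ only in time did not pass the test, while DMSO at 48 h and Molidustat at 24 h, which differ in agent and time, did not overlap and were not tested. From 24 h to 48 h the log2 change was 0.91 ± 0.51 (standard error) with DMSO, with an adjusted p of 0.696 by edgeR, and 1.06 ± 0.50 with Molidustat, with an adjusted p of 0.9998. Without DMSO 48 h replicate 2 the change with DMSO was 1.36 ± 0.32, with an adjusted p of 0.479 by edgeR, and the other DMSO libraries at 48 h lay above all 3 at 24 h. With Molidustat the 3 libraries at 48 h all lay above the 3 at 24 h. The responses at the 2 times differed by 0.14 on the log2 scale, with a 95% interval that is wide, from -1.37 to 1.66 (adjusted p = 0.984 for the interaction by edgeR).

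The 3 sestrins share the ability to restrain mTORC1 when leucine is scarce or cells are stressed. None of them was called by edgeR with its filter on low counts. SESN2 (ENSG00000130766; chromosome 1, 28259518 to 28282491), the leucine sensor that binds GATOR2, had 23.0, 24.7 and 13.2 CPM with DMSO and 6.81, 11.4 and 9.61 CPM with Molidustat at 24 h. All Molidustat libraries lay below all DMSO libraries, opposite to DDIT4. Its log2 fold change was -1.11 (95% interval -2.13 to -0.09) with an adjusted p of 0.881 by edgeR, which does not pass. At 48 h the DMSO libraries had 19.7, 25.6 and 14.7 CPM and the Molidustat libraries 11.5, 6.43 and 20.3 CPM. These ranges overlap, with a log2 fold change of -0.60 (95% interval -1.62 to 0.42). With 1 library left out, the 48 h value ranged from -1.11 to -0.31, and limma-voom gave -0.23.

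SESN3 (ENSG00000149212; chromosome 11, 95165513 to 95232541), a sestrin under control of FOXO factors, had 28.2, 34.7 and 25.2 CPM with DMSO and 25.5, 58.5 and 27.1 CPM with Molidustat at 24 h. The 48 h values were 27.5, 240.6 and 24.4 CPM with DMSO and 31.0, 25.7 and 22.0 CPM with Molidustat. All libraries but one at 48 h lay between 22.0 and 31.0 CPM, and the exception was DMSO 48 h replicate 2. The log2 fold change at 48 h was -1.84 (95% interval -3.30 to -0.38, adjusted p = 0.256 by edgeR) with this library and 0.00 without it. With all libraries but no filter on low counts, SESN3 was called lower at 48 h, at -1.76, where 610 of all 28430 genes were called lower. An antisense lncRNA, LNCRNA-IUR, covers the SESN3 gene and was given 77 counts in all, against 2009 for SESN3. The strand setting of the counting is not given, so how well the counts separate the genes is uncertain.

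SESN1 (ENSG00000080546; chromosome 6, 108984309 to 109094846), a stress-induced sestrin, rested on 0 to 75 counts a library. It had 5.51, 5.39 and 4.13 CPM with DMSO and 2.87, 9.10 and 7.11 CPM with Molidustat at 24 h. At 48 h the values were 8.27, 0 and 2.58 CPM with DMSO and 2.696, 4.72 and 11.3 CPM with Molidustat. The 0 was in DMSO 48 h replicate 2, where 0 counts allow up to 3.19 CPM (3 counts, counting error only). The groups overlapped at both times, and the intervals of the log2 fold change, -1.47 to 2.20 at 24 h and -1.21 to 2.48 at 48 h, leave changes of several-fold in either direction undetectable at this depth. The log2 fold change at 48 h was 0.63, and 0.21 without DMSO 48 h replicate 2.

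The TSC complex and RHEB are the route through which DDIT4 is known to act, and none of TSC1, TSC2 and RHEB passed the test. TSC1 (ENSG00000165699; chromosome 9, 132891348 to 132946874), the stabilising subunit, had 35.1, 70.9 and 99.6 CPM with DMSO and 58.8, 65.8 and 73.1 CPM with Molidustat at 24 h. At 48 h it had 65.2, 217 and 56.6 CPM with DMSO and 53.5, 50.6 and 44.2 CPM with Molidustat. The Molidustat libraries at 48 h were all lower than the DMSO libraries, by little for 2 of these and by far for replicate 2. The log2 fold change at 48 h was -1.16 (95% interval -2.18 to -0.15, adjusted p = 0.301 by edgeR), and -0.32 without replicate 2.

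TSC2 (ENSG00000103197; chromosome 16, 2047967 to 2089491), which inactivates RHEB through its GAP domain, had 3.67, 11.9 and 5.16 CPM with DMSO and 8.60, 7.89 and 4.81 CPM with Molidustat at 24 h. Its 48 h levels were 4.74, 9.58 and 7.34 CPM with DMSO and 8.99, 12.01 and 8.83 CPM with Molidustat. The groups overlapped at each time, with log2 fold changes of 0.05 and 0.50 (95% intervals -1.20 to 1.31 and -0.77 to 1.77). PKD1 lies on the opposite strand across the 3′ end of TSC2, so part of these few counts may belong to either gene. RHEB (ENSG00000106615; chromosome 7, 151466012 to 151520120) was counted deeply enough for the narrowest intervals of the 10, with 8888 counts in all.

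RHEB had 170.2, 170.6 and 99.6 CPM with DMSO and 169, 149 and 101 CPM with Molidustat at 24 h. At 48 h the level was 175, 101 and 161 CPM with DMSO and 176, 144 and 177 CPM with Molidustat. The groups overlapped at both times. The log2 fold change was -0.07 at 24 h (95% interval -0.77 to 0.63) and 0.18 at 48 h (-0.52 to 0.88), so a rise of the size seen for DDIT4 lies outside both intervals. Without DMSO 48 h replicate 2, the 48 h value was -0.03. A processed copy, RHEBP1, had 316 counts, and reads could have been given to either.

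Among the mTORC1 subunits, the kinase MTOR and its substrate-binding scaffold RPTOR had lower values with Molidustat at 48 h and the inhibitor DEPTOR had higher ones, but no change passed the test. MTOR (ENSG00000198793; chromosome 1, 11106535 to 11262556) had 42.9, 31.2 and 16.1 CPM with DMSO and 32.3, 22.7 and 22.3 CPM with Molidustat at 24 h. By 48 h the values were 27.5, 24.5 and 30.2 CPM with DMSO and 14.4, 18.9 and 22.2 CPM with Molidustat. The 48 h groups did not overlap, with a log2 fold change of -0.58 (95% interval -1.41 to 0.26, adjusted p = 0.588 by edgeR) and -0.66 without DMSO 48 h replicate 2. With total counts in place of TMM factors, the MTOR libraries at 48 h did overlap, and those of TSC2 did not.

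RPTOR (ENSG00000141564; chromosome 17, 80544819 to 80966371) rested on 3 to 67 counts a library. It had 0.69, 5.01 and 4.75 CPM with DMSO and 2.15, 8.13 and 4.23 CPM with Molidustat at 24 h. The 48 h values were 4.88, 9.58 and 5.58 CPM with DMSO and 4.27, 3.86 and 0.56 CPM with Molidustat. The 48 h groups were narrowly apart, with the Molidustat libraries lower. The log2 fold change was 0.51 at 24 h (95% interval -1.41 to 2.43) and -1.18 at 48 h (-3.16 to 0.81, adjusted p = 0.657 by edgeR), and without replicate 2 the 48 h value was -0.89.

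DEPTOR (ENSG00000155792; chromosome 8, 119873717 to 120050918), a protein that binds MTOR and lowers its kinase activity, had 8.27, 1.54 and 2.48 CPM with DMSO and 3.59, 14.3 and 7.31 CPM with Molidustat at 24 h. At 48 h it had 8.54, 4.26 and 4.65 CPM with DMSO and 11.5, 18.02 and 12.6 CPM with Molidustat. The groups overlapped at 24 h and were apart at 48 h, with the Molidustat libraries higher. The log2 fold change was 1.03 at 24 h (95% interval -0.43 to 2.50) and 1.22 at 48 h (-0.25 to 2.69, adjusted p = 0.482 by edgeR), and 1.07 at 48 h without DMSO 48 h replicate 2. These values rest on 4 to 118 counts a library. With 1 library left out, the 24 h value ranged from 0.40, without Molidustat 24 h replicate 2, to 2.04, without DMSO 24 h replicate 1, and the 48 h value from 0.99 to 1.63.

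**Figure D2:**
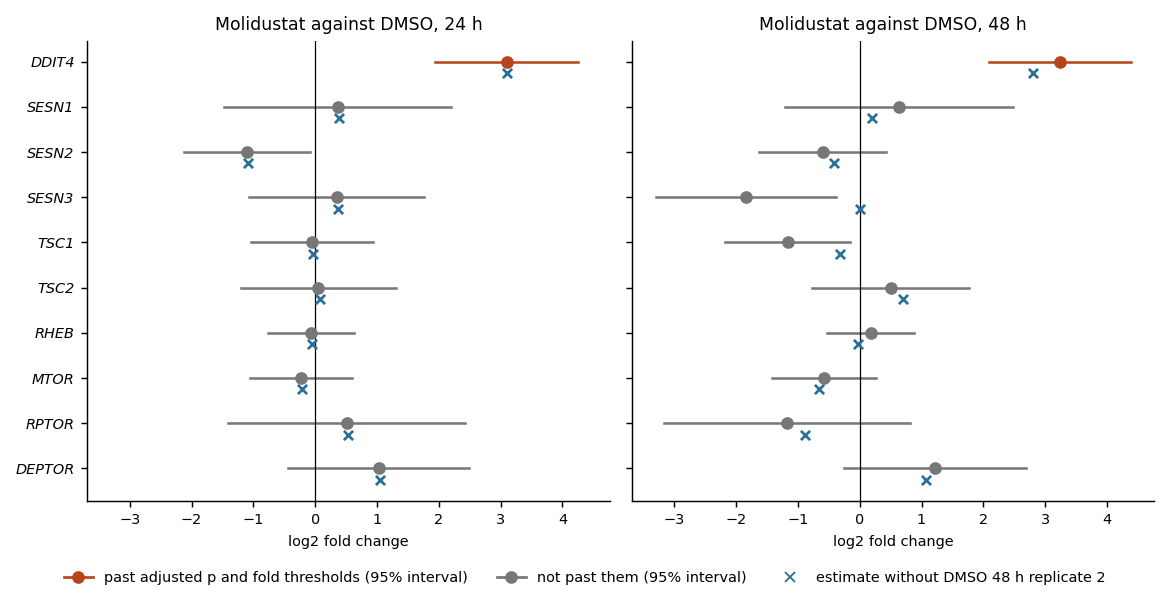
Log2 fold change of Molidustat against DMSO (x axis) for each of the 10 genes (y axis) at 24 h and 48 h, with 95% intervals from edgeR, and crosses for the estimate without DMSO 48 h replicate 2. DDIT4 alone is past both thresholds, and at 48 h the crosses of SESN3 and TSC1 move to 0.00 and -0.32.

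By position alone, 2 of the 10 genes had Molidustat and DMSO libraries that did not overlap at 24 h, DDIT4 above and SESN2 below, where this held for 12.3% of all genes tested. At 48 h there were 5 of 10, DDIT4 and DEPTOR above and TSC1, MTOR and RPTOR below, where it held for 18% of all genes. The members' shares lie above these backgrounds, but 1 gene more or less moves them by 10 percentage points. Between the times, 0 of 10 genes had non-overlapping DMSO libraries, against 11.9% of all genes. In Molidustat-treated cells 4 of 10 did, against 13.9% of all genes. DDIT4 and TSC2 were higher at 48 h there, and TSC1 and MTOR were lower, MTOR not so with total counts.

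No gene of the 10 was called between the times by edgeR with its filter on low counts. From 24 h to 48 h, 0 of 10 were called in DMSO-treated cells by edgeR, against 0.00701% of all genes, with 1 at an unadjusted p under 0.05, as were 8.14% of all genes. In Molidustat-treated cells 0 of 10 were called, against 0% of all genes, with 0 at an unadjusted p under 0.05, where 4.58% of all genes were. No difference in the response to Molidustat between the times passed the interaction test of edgeR (0 of 10, against 0% of all genes, with 1 at an unadjusted p under 0.05, as were 6.78% of all genes). Limma-voom with sample quality weights also called 0 of the 10 in these 3 comparisons, and DESeq2 called 0 of 9, giving no p-value for SESN3. Without the filter on low counts, SESN3 was called in DMSO-treated cells and in the interaction. Of all 28430 genes, that fit called 387 higher and 13 lower in DMSO-treated cells, and 6 higher and 315 lower in the interaction. The gene with the unadjusted p in DMSO-treated cells and in the interaction was SESN3. Its change from 24 h to 48 h in DMSO was 1.68 on the log2 scale, and -0.15 without DMSO 48 h replicate 2. Its interaction was -2.19 (adjusted p = 0.728 by edgeR), and -0.37 without that library. These comparisons share libraries with those of Molidustat against DMSO.

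The wider pathway was read from lists of named genes. At 48 h DESeq2 gave an adjusted p for 8 of 9, 27 of 28, 19 of 20, 17 of 22 and 11 of 12 of the genes tested in the 5 lists that follow. At 24 h it did so for 19 of 20 in the list for energy and growth factor input, and for 20 of 22 mTORC1 targets and outputs. Its counts cover those genes. An unadjusted p under 0.05 by edgeR was found for 5.25% of all genes tested at 24 h and for 13.3% at 48 h, and the unadjusted counts of the lists are to be read against these shares. In the list of other mTORC1 and mTORC2 parts, 9 of 11 genes could be tested and 0 were called at either time by edgeR, DESeq2 or limma-voom, with 1 at an unadjusted p under 0.05 at 24 h and 0 at 48 h. DDIT4L, the paralog of DDIT4, had 0 counts. The list's largest changes at 48 h were those of RHEBL1, a relative of RHEB, PRR5, an mTORC2 subunit, and TTI1, which helps to assemble the kinase. RHEBL1 had 2.74 ± 1.23 (log2 fold change, standard error) at the earlier time and 1.67 ± 1.19 at the later one. Its Molidustat libraries lay above its DMSO libraries at each time, but it rested on 142 counts over all libraries. Its group means at 24 h and 48 h were 0.80 and 0.95 CPM with DMSO and 5.88 and 3.65 CPM with Molidustat. In DMSO 48 h replicate 2 it had 0 CPM, where 0 counts allow up to 3.19 CPM. PRR5 and TTI1 had 0.70 and -0.45 at 48 h.

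The list for the amino acid input, which holds the Rag GTPases, Ragulator, the GATOR complexes and KICSTOR, had all 28 genes tested, with medians of 0.00 at 24 h and 0.03 at 48 h. EdgeR called 0 at either time, with 0 genes at 24 h and 6 at 48 h (2 higher, 4 lower) at an unadjusted p under 0.05. Limma-voom called 0, and DESeq2 called 1, KICS2, lower at 48 h, where it called 176 of all 12239 genes with an adjusted p lower. KICS2, a subunit of KICSTOR, had the largest change at 48 h, -2.87 ± 0.75 (standard error), with an adjusted p of 0.180 by edgeR. CASTOR2, a homolog of the arginine sensor, and FNIP1, a partner of the RRAGC activator FLCN, followed at -1.95 and -1.77. DMSO 48 h replicate 2 had 257 CPM for KICS2 and 506 CPM for CASTOR2, where the other libraries had at most 49.1 and 156 CPM. Without that library KICS2, CASTOR2 and FNIP1 had -1.07, -0.19 and -0.27.

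The list for energy and growth factor input, which holds AMPK, LKB1, the insulin receptor branch and AKT, had 20 of 22 genes tested and medians of -0.02 at each time. None was called at either time by edgeR, DESeq2 or limma-voom (0 genes, with 0 at 24 h and 3 at 48 h at an unadjusted p under 0.05 by edgeR). The largest changes named for 48 h are those of INSR, the insulin receptor, at -2.16, IGF1R, the receptor of insulin-like growth factor, at -1.10, and PRKAB2, a β subunit of AMPK, at 1.10. INSR and IGF1R were highest in DMSO 48 h replicate 2, where INSR had 3788 CPM against at most 685 CPM elsewhere, and PRKAB2 was lowest there. Without that library the values were 0.26, -0.02 and 0.73.

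All 22 listed mTORC1 targets and outputs were tested, with medians of 0.08 at each time. EdgeR, DESeq2 and limma-voom each called 0, with 2 at 24 h and 5 at 48 h at an unadjusted p under 0.05 by edgeR. The cap-binding factor EIF4E had -2.35 at 48 h, its inhibitor EIF4EBP2 had -1.65, and both were highest in DMSO 48 h replicate 2, without which they had -0.43 and 0.11. TFEB, a lysosomal transcription factor that mTORC1 keeps in the cytosol, had 1.77 with a standard error of 2.13. Transcript levels do not measure mTORC1 activity, which is exerted by phosphorylation of its targets.

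The library that held these high values held those of other pathway genes as well. Of the 101 tested genes among the 10, the mTORC1 lists and the ATF4 list, 16 had a log2 fold change below -1 at 48 h, and all 16 had their highest value of the 12 libraries in DMSO 48 h replicate 2. Without that library 1 of the 16, KICS2, was still below -1. SESN3, TSC1 and RPTOR are among the 16. PRKAG2, an AMPK subunit, had -0.68 with that library, where it was lowest, and -1.08 without it. Over all 101 genes, 27 (26.7%) were highest in that library, where 24.5% of all genes tested were, and 33 were lowest in it, where 29.1% of all genes tested were.

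**Figure D3:**
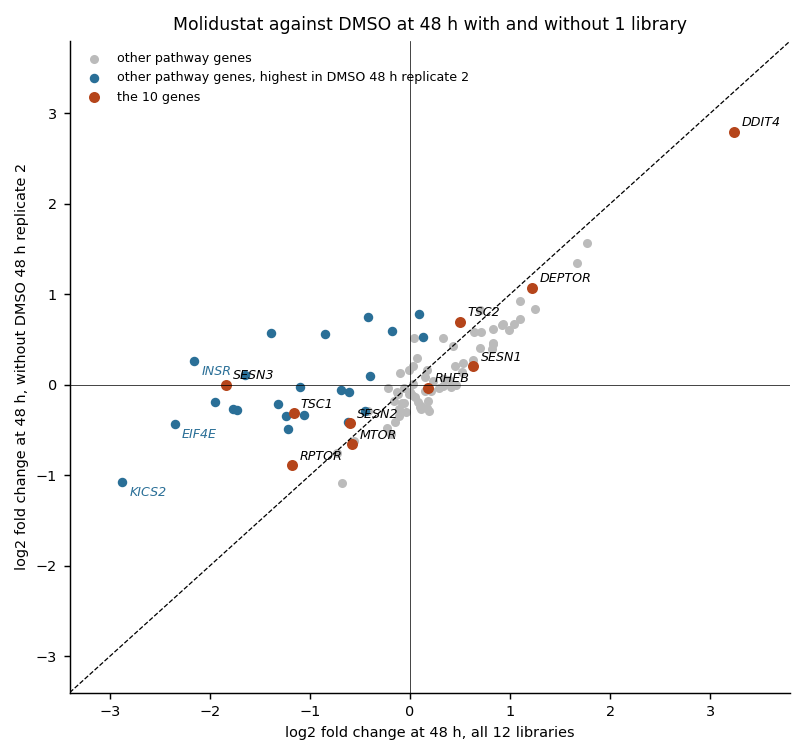
Log2 fold change at 48 h for the 101 pathway genes with all 12 libraries (x axis) and without DMSO 48 h replicate 2 (y axis), with equal values on the dashed line, the 10 genes in orange and other genes highest in that library in blue. Genes at the left, such as KICS2, EIF4E, INSR and SESN3, move towards 0 on the y axis, while DDIT4 stays at 2.80.

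DDIT4 and SESN2 also respond to ATF4, a factor of the integrated stress response, so a list for it was examined beside them. All 12 genes for ATF4 and stress were tested, with medians of -0.12 and 0.01, and 0 were called at either time by edgeR, DESeq2 or limma-voom (0 at 24 h and 1 at 48 h at an unadjusted p under 0.05 by edgeR). The largest changes at 48 h were those of the stress factors DDIT3, at 1.25, and ATF3, at 1.04, and of the cystine transporter subunit SLC7A11, at -0.73. DDIT3 was higher in all 3 Molidustat libraries than in the DMSO libraries at 48 h, and had 0.84 without DMSO 48 h replicate 2.

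Genes known to be induced by HIFs were taken as comparators for DDIT4. Of 9 comparators, 8 were tested, all 8 had positive log2 fold changes at each time, and the medians were 1.86 and 1.64. EdgeR called 3 higher at 24 h, namely BNIP3, a mitophagy receptor, PDK1, a kinase that closes pyruvate dehydrogenase, and SLC2A1, a glucose transporter. At 48 h it called 1, BNIP3. DESeq2 called 6 at 24 h, these 3 with KDM3A, NDRG1 and VEGFA, and 4 at 48 h, BNIP3, KDM3A, NDRG1 and SLC2A1. Limma-voom called the same 3 as edgeR at 24 h and 5 at 48 h, BNIP3, KDM3A, NDRG1, PDK1 and SLC2A1. These tools also called more genes higher over all genes than edgeR did. DESeq2 called 123 of 16090 higher at 24 h and 172 of 12239 at 48 h, and limma-voom 64 and 244 of 14274. Without DMSO 48 h replicate 2, 5 of 9 were called at 24 h, with KDM3A and NDRG1 beside BNIP3, PDK1 and SLC2A1, and 1 of 9 at 48 h, BNIP3. DDIT4 had 3.10 ± 0.54 (log2 fold change, standard error) at the earlier time and 3.24 ± 0.54 at the later one, and BNIP3 had 2.81 ± 0.34 and 2.68 ± 0.34. Whether DDIT4 differs from these genes was not tested.

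**Figure D4:**
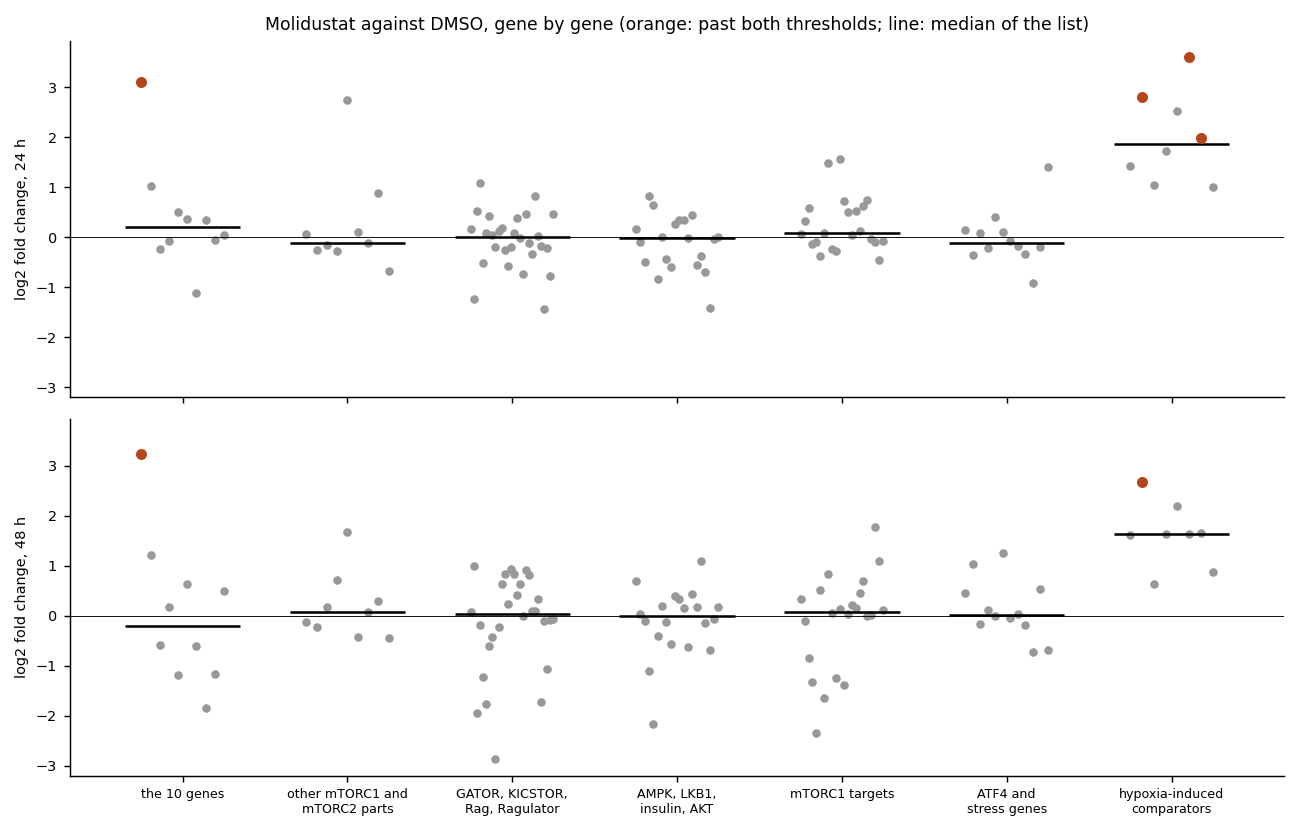
Log2 fold change of Molidustat against DMSO (y axis) for every tested gene of each list (x axis) at 24 h and 48 h, with a line at each list's median and orange points for genes past both thresholds. The medians of the 10 genes and of the mTORC1 and ATF4 lists lie between -0.20 and 0.20, and those of the hypoxia-induced comparators at 1.86 and 1.64.

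Across the 12 libraries, the log2 level of DDIT4 followed most closely those of TF (Pearson's r of 0.97), TMEM141 (0.97), CCDC183 (0.96), BNIP3L (0.96), VTN (0.95), ENSG00000273171 (0.95), SERPINA1 (0.95) and PFKL (0.94), among 9098 genes with a mean of at least 10 CPM. TF, VTN and SERPINA1 are plasma proteins made by hepatocytes, BNIP3L is a mitophagy receptor and PFKL the liver phosphofructokinase. These values describe 12 libraries that share 4 groups, and a gene that differs with Molidustat will tend to correlate with another that does. Without DMSO 48 h replicate 2, 2 of the 8 stayed among the 8 highest, and by Spearman's rank correlation 5 did. Of the other genes of the 10 above that level, RHEB had an r of 0.37, MTOR -0.39, SESN3 -0.57, TSC1 -0.60 and SESN2 -0.69. Without DMSO 48 h replicate 2, RHEB had 0.12, MTOR -0.47, SESN3 -0.14, TSC1 -0.28 and SESN2 -0.61.

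The summed level of the hepatocyte genes was higher with Molidustat, as was that of DDIT4, at 14347 to 18654 CPM with DMSO and 19717 to 26810 CPM with Molidustat at 24 h, and at 8167 to 19084 CPM and 27933 to 31191 CPM at 48 h. All 9 had counts in every library. The largest changes of the 9 were those of TF, the iron carrier transferrin, at 1.26 and 1.52, and SERPINA1, at 1.15 and 1.53, at 24 h and at 48 h, except that APOA1 had 1.75 at 48 h. APOB went the other way at 48 h (-0.46), as did APOA2 at 24 h (-0.17). The smallest adjusted p of the 9 by edgeR was that of SERPINA1 at each time, 0.475 and 0.135. The part of this in the DDIT4 result was not tested.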

How the data were processed

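The authors prepared 3′ RNA-seq libraries from Huh7 cells, and the deposited values are whole-number counts of reads per gene, without normalization. The submitters' processing notes name bcl2fastq 2.17.1.14, cutadapt 1.9.1, STAR 2.7.9a, HTSeq 0.11.2 and DESeq2 1.26.0, and the genome build is GRCh38. The annotation release, the strand setting and any use of molecular identifiers are not given in the sources used here, so PCR copies may be among the counts. Because reads come from 3′ ends and priming differs between transcripts, levels are not compared between genes.

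Libraries were assigned to groups from their labels. All columns of per-sample values were used (0 left out), and 5 summary lines per library that name no gene entered neither library sizes nor tests; reads on no feature made up 17.1 to 50.4% of those listed. Gene names and coordinates are those of GENCODE release 44. The counts went into edgeR 4.0.16 (R 4.3.3): filterByExpr (minimum count 10, minimum total 15), TMM factors, and the quasi-likelihood test in 1 fit of all 12 libraries. P-values were adjusted by Benjamini-Hochberg over the 14274 genes tested. Each standard error is the log2 fold change divided by the root of its F statistic, and 95% intervals come from the t distribution with the fit's degrees of freedom. With 3 libraries against 3, an exact permutation test cannot give a two-sided p below 0.1, so none is given. The fits were tested on simulated counts, drawn from 1 mean level per gene at each library's size, apart from genes set to change with Molidustat. The unlike composition of DMSO 48 h replicate 2 was not simulated, so that test does not cover it.

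The 10 genes and the lists were chosen with earlier results of these data known. All 10 are named with their values in every library. Some genes of the pathway are not reported here and are left out of the lists and their counts. From each list the called genes and the 3 with the largest absolute log2 fold change at 48 h are named, and the 8 genes closest to DDIT4 by Pearson correlation of log2 CPM (prior count 2). Promoter sequences are from RefSeq on GRCh38.p14. Alternatives were DESeq2 1.42.0, limma-voom (limma 3.58.1) with sample quality weights, RLE factors, total counts, no filter, each time point alone, a minimum of 10 counts in every library, the replicate number as a block, thinning to the smallest library, no fold threshold, and each library left out in turn. Calls in the lists without DMSO 48 h replicate 2 and with the other tools were added after the data were seen. Figures were drawn with Python 3.11.15 and matplotlib 3.10.9.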

Additional observations from a re-analysis of the deposited data

How the results depend on the processing

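The DDIT4 response kept its direction in every fit run, between 3.06 and 3.24 on the log2 scale at 24 h and between 2.90 and 3.46 at 48 h over the settings other than leaving out a library. With each time point fitted alone it was not called at 48 h (3.25, 0 of 10 genes called). Requiring at least 10 counts in every library removed DDIT4 and 4 other genes of the 10, so 0 of the 5 left were called at 24 h and at 48 h. Without the filter on low counts, SESN3 was called as well, which gave 2 genes at 48 h, 1 in the interaction and 1 between the times in DMSO. Of all 28430 genes, that fit called 154 higher and 610 lower at 48 h. It called 6 higher and 315 lower in the interaction, and 387 higher and 13 lower between the times in DMSO. SESN3 had 240.6 CPM in DMSO 48 h replicate 2, against 27.5 and 24.4 CPM in the other DMSO libraries at 48 h. The cause was not tested. With 1 library left out, 0 to 1 genes were called at 24 h and at 48 h, DDIT4 being called in 7 and 9 of 12 fits, with log2 fold changes of 2.77 to 3.32 and 2.80 to 3.55. TSC1 at 24 h turned to 0.18 with limma-voom, the DDIT4 interaction to -0.26 with limma-voom and -0.0803 after thinning, and the SESN3 change in DMSO to -0.12 with limma-voom. Leaving out a library also turned the sign of other values, the SESN3 changes at 48 h and in DMSO among them. At 24 h the ranges were -0.16 to 0.55 for SESN3, -0.37 to 0.30 for TSC1, -0.26 to 0.67 for TSC2, -0.31 to 0.10 for RHEB, -0.55 to 0.12 for MTOR and -0.0901 to 0.84 for RPTOR. At 48 h they were -0.15 to 1.83 for SESN1, -2.27 to 0.0024 for SESN3 and -0.0345 to 0.33 for RHEB. The DDIT4 interaction ranged from -0.30 to 0.46 and the SESN3 change in DMSO from -0.15 to 2.09. Total counts in place of TMM moved the median of all genes at 48 h to 0.13, and the DDIT4 change there was still called. Over all genes, calls higher and lower were 33 and 0 at 24 h and 30 and 3 at 48 h, against 123 and 12, and 172 and 176, with DESeq2, 104 and 2, and 154 and 610, with no filter, 64 and 0, and 244 and 34, with limma-voom, and 15 and 0, and 14 and 1, with at least 10 counts in every library. Fits of a single time point gave 57 and 0, and 7 and 0.

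Same-numbered libraries deviated from their group means together at correlations of -0.09 to 0.14, and different-numbered ones at -0.16 to 0.14. Replicate numbers thus showed no pairing by this check. The deviations are from means of 3 libraries, so the check does not settle whether the numbers mark shared cultures. With the replicate number as a block, DDIT4 had 3.08 at 24 h and 3.46 at 48 h and was called at both, and the block changed no call of the 10 genes. SESN1, TSC2, RPTOR and DEPTOR rest on few counts, and the width of their intervals sets what this depth can show.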
